A study of Homo sapiens with 6 samples.

Results

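RNA levels of CALML5 and 9 genes of the cornified envelope were read in 6 libraries of 3 human lung cancer lines. The 10 genes are CALML5 and its relative CALML3, the envelope precursors IVL, SPRR1A, SPRR1B, SPRR2A and SPRR3, the cross-linking enzyme TGM1, and the plakins PPL and EVPL. They were picked by name from 26485 gene symbols, with earlier results of the same libraries known, so their levels and differences are given here as a description and without p-values. Of the 10 genes, 7 stood at 1 TPM (transcripts per 1000000, a value scaled to transcript length and library size) or more in all 6 libraries. CALML3 and SPRR2A were below 1 TPM in all 6, with 0.0962 TPM as their highest value. IVL was below 1 TPM in 1 library, at 0.998 TPM in PC9 replicate 2, and at or above 1.08 TPM in the other 5.

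The lines were PC9, a human lung adenocarcinoma line driven by mutant EGFR, PC9-BrM4, known as a brain-metastatic derivative of PC9, and PC9-AMG, whose derivation the labels do not give. Each line gave 2 RNA-seq libraries from cells in conventional culture, with no treatment, time or genotype contrast beside the line. The labels do not say whether the 2 libraries of a line came from separate cultures, so every SD and SE below measures only the spread between these libraries, which may be technical.

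The cornified envelope is the protein shell that replaces the plasma membrane of a keratinocyte in the outer layers of the epidermis. Envoplakin and periplakin, encoded by EVPL and PPL, form the first scaffold under the membrane, and involucrin, encoded by IVL, is added early. Transglutaminase 1, encoded by TGM1, joins these proteins by isopeptide bonds, and loricrin and the small proline-rich proteins of the SPRR genes are cross-linked later. CALML5, also called calmodulin-like skin protein, is a calcium-binding protein of the differentiating epidermis, and CALML3 is a calmodulin-like protein of stratified epithelia.

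The aligned sequence per library, worked out from the deposited coverage and FPKM, ranged from 2.66 to 4.39 gigabases, and 13455 to 13764 genes reached 1 TPM. The lines carried simple-epithelial genes at high levels: KRT8 at 3085 to 4870 TPM, KRT18 at 2292 to 3828 TPM and the adhesion molecule EPCAM at 665 to 726 TPM. The lung lineage factor NKX2-1 was listed at 0 in 5 libraries and at 0.0409 TPM in the other, and SFTPA1 and SFTPC, which encode surfactant proteins, were at 0 in all 6. Among genes of cornifying epidermis, loricrin (LOR), KRT1, DSG1 and all 18 LCE (late cornified envelope) genes were at 0 in all 6 libraries. LOR, KRT1 and DSG1 were named after their values were seen, and they do not stand for such genes as a class. Others were expressed. Mean levels were 8.82 TPM for corneodesmosin (CDSN) in PC9-BrM4, 8.98 TPM for cornifelin (CNFN) in PC9-AMG and 42.2 TPM for sciellin (SCEL) in PC9. The set is therefore described by its gene names, and no line carried the RNA of a complete cornified envelope.

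The sequence before the start site was held by the RefSeq promoter table (GRCh38.p14) for 7 of the 10 genes, all but TGM1, PPL and EVPL. The 250 bases upstream are printed for 5 of them, because CALML5 and CALML3 are close neighbours with very different RNA levels, because SPRR1A and SPRR1B are near copies whose levels parted between the lines, and because IVL is the early precursor of the shell. They lie at chr10:5499571-5499820 on the minus strand for CALML5, chr10:5524711-5524960 on the plus strand for CALML3, chr1:152908296-152908545 on the plus strand for IVL, chr1:152983831-152984080 on the plus strand for SPRR1A and chr1:153030953-153031202 on the plus strand for SPRR1B. The windows are set by the RefSeq start sites. For CALML3 that site is 5524961, while the deposited model starts at 5524889. The last 72 bases of the CALML3 window therefore lie inside the deposited model. Each is written 5′ to 3′ on the gene's own strand, with AP-1 (TGANTCA) and TATA box (TATAAA) matches in capitals.
CALML5: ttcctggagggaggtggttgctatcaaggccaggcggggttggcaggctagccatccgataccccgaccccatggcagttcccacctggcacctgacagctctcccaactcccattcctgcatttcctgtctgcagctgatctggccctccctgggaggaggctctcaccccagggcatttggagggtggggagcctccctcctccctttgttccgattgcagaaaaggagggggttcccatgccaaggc
CALML3: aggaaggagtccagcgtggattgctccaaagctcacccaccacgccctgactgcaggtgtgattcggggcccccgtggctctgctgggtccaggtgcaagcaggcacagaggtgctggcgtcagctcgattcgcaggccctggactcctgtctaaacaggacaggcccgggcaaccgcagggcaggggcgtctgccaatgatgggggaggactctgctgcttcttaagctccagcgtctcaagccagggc
IVL: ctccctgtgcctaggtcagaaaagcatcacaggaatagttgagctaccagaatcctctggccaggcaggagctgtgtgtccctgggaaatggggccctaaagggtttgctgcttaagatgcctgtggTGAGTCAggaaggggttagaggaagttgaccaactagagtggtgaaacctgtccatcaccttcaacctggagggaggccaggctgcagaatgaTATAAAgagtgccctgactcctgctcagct
SPRR1A: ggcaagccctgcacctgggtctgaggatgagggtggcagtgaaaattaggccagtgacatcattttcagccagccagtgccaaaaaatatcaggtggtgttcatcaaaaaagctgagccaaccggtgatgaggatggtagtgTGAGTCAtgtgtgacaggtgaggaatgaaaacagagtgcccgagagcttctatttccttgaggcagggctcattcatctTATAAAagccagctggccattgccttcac
SPRR1B: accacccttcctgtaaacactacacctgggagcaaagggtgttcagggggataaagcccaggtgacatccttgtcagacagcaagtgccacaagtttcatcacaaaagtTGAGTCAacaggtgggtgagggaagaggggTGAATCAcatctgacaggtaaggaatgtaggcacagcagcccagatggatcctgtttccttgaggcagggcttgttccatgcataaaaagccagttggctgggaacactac
The AP-1 letters TGANTCA, the element bound by FOS and JUN proteins, were found on either strand in 5 of the 7 promoters, IVL, SPRR1A, SPRR1B, SPRR2A and SPRR3. They are present in 6.57% of all 35116 promoters of that length in the table. SPRR1B held 2 matches, at 141 to 135 and 111 to 105 bases before the start, and SPRR1A held 1, at 108 to 102. TATAAA was found in IVL, SPRR1A, SPRR2A and SPRR3, 4 of the 7, against 10.7% of all promoters. For both motifs, all the genes but IVL belong to the SPRR family and are neighbours on chromosome 1. Their matches are therefore not independent of one another, and nothing is read from these shares. ACCGGTT, letters bound by grainyhead-like factors, occurred in 1 of the 7, SPRR1A, at 131 to 125 bases before the start, against 0.626% of all promoters. GCCNNNGGC, letters bound by AP-2 factors, occurred in 0 of the 7 and in 19.8% of all promoters. The motifs do not overlap one another in these windows. CALML5 held none of the 4 motifs in these letters, and its window was 62.0% G and C, against 50.8% for SPRR1B and 49.6% for SPRR1A. These matches describe letters and not binding.

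CALML5 was the gene of the set whose RNA differed most between the lines. It lies on chromosome 10 from 5498695 to 5499570 (hg38, minus strand) and has 1 exon. CALML5 stood at 2.11 and 2.57 TPM in the PC9 libraries, at 121.7 and 137.5 TPM in PC9-BrM4, and at 3.13 and 3.79 TPM in PC9-AMG. Both PC9-BrM4 libraries were far above the other 4, and both PC9-AMG libraries were above both PC9 libraries by a small step. The means were 2.34 ± 0.327, 129.6 ± 11.2 and 3.46 ± 0.465 TPM (SD, n = 2), a 55.3-fold difference between PC9-BrM4 and PC9 and a 1.48-fold difference between PC9-AMG and PC9. On the log2(TPM + 1) scale, on which the differences of low genes come out too small, CALML5 was 5.29 ± 0.11 higher in PC9-BrM4 than in PC9 (SE from a limma fit over all genes) and 0.42 ± 0.11 higher in PC9-AMG. Its difference between PC9-BrM4 and PC9 ranked 3 among the rises of 14195 tested genes. In bulk RNA, a larger share of cells that express a gene and more RNA per cell cannot be told apart.

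The depth behind these values differed with the level. CALML5 had a mean per-base coverage of 3.07 and 2.95 reads in the PC9 libraries, 163 and 218 for PC9-BrM4, and 5.14 and 7.12 for PC9-AMG. The PC9 and PC9-AMG levels therefore rest on few reads, and the gap between these 2 lines is less secure than the gap to PC9-BrM4. None of the 810 windows of 50 bases in its transcript occurs in another gene's transcript of the GENCODE v29 annotation. Near matches and sequence outside annotated transcripts were not searched.

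CALML3, the closest relative in the set, was not expressed at a level that can be compared. It lies 26.2 kb from CALML5, from 5524889 to 5526268 on chromosome 10 (plus strand), as 1 exon. CALML3 was listed at 0 and 0.0441 TPM in PC9, at 0 and 0.0353 TPM in PC9-BrM4, and at 0 in both PC9-AMG libraries. No comparison between the lines can be drawn from these values. CALML3-AS1, which overlaps CALML3 on the opposite strand, was at 1.05 and 1.03 TPM in PC9, 0.413 and 0.448 TPM in PC9-BrM4, and 0.897 and 0.740 TPM in PC9-AMG. The library kit keeps strand, but no source used here says whether the counting did, so reads of this pair may not be told apart.

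IVL encodes involucrin, an early substrate of transglutaminase that covers the inner face of the membrane. It lies on chromosome 1 from 152908563 to 152911886 and has 2 exons. IVL stood at 1.08 and 0.998 TPM in PC9, at 1.78 and 1.77 TPM in PC9-BrM4, and at 1.24 and 1.13 TPM in PC9-AMG. The PC9-BrM4 libraries were the highest, the PC9-AMG libraries lay between, and no 2 lines overlapped. The log2 difference from PC9 was 0.44 ± 0.11 in PC9-BrM4 and 0.10 ± 0.11 in PC9-AMG. All of these values lie close to the limit of 1 TPM used for testing, with a coverage of 1.14 to 2.80 reads per base, and with a pseudocount of 0.1 TPM in place of 1 the difference in PC9-BrM4 was 0.72.

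The SPRR genes encode small proline-rich proteins that bridge other envelope proteins. SPRR1A, on chromosome 1 from 152984088 to 152985814, stood at 3.01 and 3.03 TPM in PC9, at 1.39 and 1.47 TPM in PC9-BrM4, and at 8.58 and 6.74 TPM in PC9-AMG. The 3 lines did not overlap, with PC9-BrM4 lowest and PC9-AMG highest, which is the reverse of the CALML5 order for PC9-BrM4. SPRR1A was 2.11-fold lower in PC9-BrM4 than in PC9 and 2.54-fold higher in PC9-AMG. The log2 differences were -0.73 ± 0.12 and 1.10 ± 0.12, and 1.83 ± 0.12 between PC9-AMG and PC9-BrM4.

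SPRR1B, from 153031203 to 153032900 on chromosome 1, has a sequence close to that of SPRR1A. Its level was 2.88 and 2.71 TPM in PC9, 1.86 and 2.56 TPM in PC9-BrM4, and 2.47 and 1.58 TPM in PC9-AMG. The libraries of PC9-BrM4 and PC9-AMG overlapped, and both lines lay below PC9. Its log2 difference from PC9 was -0.25 ± 0.17 in PC9-BrM4, with -0.09 without PC9-BrM4 replicate 1 and -0.41 without PC9-BrM4 replicate 2. In PC9-AMG it was -0.34 ± 0.17, with -0.55 without PC9-AMG replicate 1 and -0.13 without PC9-AMG replicate 2. The ratio of SPRR1A to SPRR1B was 1.05 and 1.12 in PC9 libraries, 0.746 and 0.573 for PC9-BrM4, and 3.47 and 4.26 for PC9-AMG, so the pair was near parity in PC9 and apart in PC9-AMG. Of the 50-base windows of the SPRR1A transcript, 11.3% also occur in SPRR1B, and 4.38% of those of SPRR1B occur in SPRR1A, so part of the reads could be assigned to either gene and the split between them is uncertain. GENCODE v29 lists SPRR1A over a shorter stretch, from 152985231 to 152985500, than the deposited model.

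SPRR3, from 153001747 to 153003856 on chromosome 1, is known from the esophagus and other wet stratified epithelia. Its level was 6.50 and 4.60 TPM in PC9, 5.63 and 5.78 TPM in PC9-BrM4, and 4.46 and 3.41 TPM in PC9-AMG. PC9 and PC9-BrM4 overlapped, with the PC9 libraries spread on both sides of PC9-BrM4, and both PC9-AMG libraries were below the other 4. The log2 difference of SPRR3 from PC9 was 0.05 ± 0.16 in PC9-BrM4, and its direction turned, from 0.26 without PC9 replicate 1 to -0.16 without PC9 replicate 2. In PC9-AMG it was -0.40 ± 0.16, with -0.19 without PC9 replicate 1 and -0.61 without PC9 replicate 2. SPRR2A, from 153056120 to 153057512, was listed at 0 in 5 libraries and at 0.0962 TPM in PC9-BrM4 replicate 2. Among the other 5 SPRR2 genes 1 was at 0 in every library, and none exceeded 0.394 TPM, with 32.7% of the SPRR2A windows present in 6 other genes. The SPRR genes of these lines were thus SPRR1A, SPRR1B and SPRR3, at single-digit TPM.

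TGM1, which encodes the membrane-anchored transglutaminase that builds the shell, lies on chromosome 14 from 24249114 to 24263210 (minus strand, 15 exons). It stood at 1.74 and 1.43 TPM in PC9, at 1.54 and 1.59 TPM in PC9-BrM4, and at 3.60 and 3.07 TPM in PC9-AMG. PC9 and PC9-BrM4 overlapped, and both PC9-AMG libraries were above the other 4. TGM1 was 2.105-fold higher in PC9-AMG than in PC9, and its log2 difference was 0.75 ± 0.12 there and -0.01 ± 0.12 in PC9-BrM4. It was accompanied by a far more abundant relative: TGM2, the widely expressed tissue transglutaminase, stood at 522 ± 6.88 TPM in PC9, 546 ± 31.4 TPM in PC9-BrM4 and 645 ± 4.01 TPM in PC9-AMG (SD, n = 2).

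PPL and EVPL, the plakins of the scaffold, were the abundant members in PC9 and PC9-AMG. PPL, on chromosome 16 from 4882507 to 4937135 (minus strand, 22 exons), stood at 129.7 and 125.1 TPM in PC9, at 121.1 and 146.4 TPM in PC9-BrM4, and at 107.2 and 105.8 TPM in PC9-AMG. The PC9 libraries lay between the 2 PC9-BrM4 libraries, and the PC9-AMG libraries were below the other 4. The log2 difference of PPL from PC9 was 0.06 ± 0.08 in PC9-BrM4 and -0.26 ± 0.08 in PC9-AMG. EVPL, on chromosome 17 from 76006846 to 76027426 (minus strand, 22 exons), stood at 36.8 and 37.7 TPM in PC9, at 46.7 and 59.0 TPM in PC9-BrM4, and at 51.2 and 51.9 TPM in PC9-AMG. PC9-BrM4 and PC9-AMG were both above PC9 and overlapped each other, with log2 differences from PC9 of 0.48 ± 0.10 and 0.46 ± 0.10. Periplakin RNA exceeded envoplakin RNA 3.53-fold and 3.32-fold in the PC9 libraries, 2.60-fold and 2.48-fold for PC9-BrM4, and 2.09-fold and 2.04-fold in PC9-AMG. The ratio thus fell into 3 ranges that did not overlap, with the replicates of each line close together.

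The 2 libraries of a line differed by transcript length, which bears on the plakins. PC9-BrM4 replicate 2 was above replicate 1 for 7 of 7 plakin genes (PPL, EVPL, DSP, PLEC, DST, MACF1 and EPPK1), by 0.27 for PPL and 0.33 for EVPL on the log2 scale, and in PC9 and PC9-AMG replicate 2 was above for 1 of 7 each. Over the genes of 10 TPM or more in all libraries with a known transcript length, 8127 of 8688, the median difference of PC9-BrM4 replicate 2 from replicate 1 went from -0.04 for transcripts under 2 kb to 0.15 for those of 8 kb or more. The same medians went from 0.03 to -0.13 in PC9-AMG and from 0.02 to -0.05 in PC9, so that replicate 2 was lower for long transcripts there. Without PC9-BrM4 replicate 2 the difference between PC9-BrM4 and PC9 was 0.32 for EVPL and -0.07 for PPL, and without replicate 1 it was 0.65 and 0.20. The part of transcript length in these differences was not tested.

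**Figure D1:**
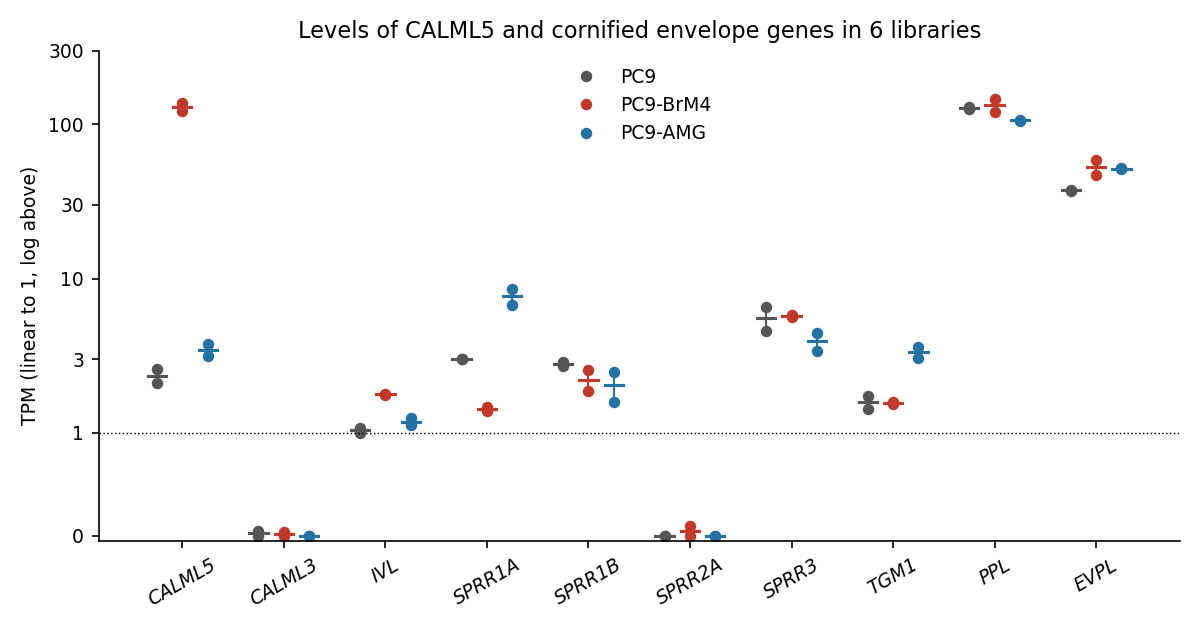
TPM of the 10 genes (horizontal axis) in each of the 6 libraries, on an axis that is linear up to 1 TPM (dotted line) and logarithmic above. Points are libraries coloured by line, horizontal strokes show the mean of the 2 libraries of a line, and vertical bars join the 2 libraries. CALML5 in PC9-BrM4, at 121.7 and 137.5 TPM, is the point pair that leaves the other lines, while CALML3 and SPRR2A stay near 0.

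The order of the levels showed where CALML5 stood among its fellows. In PC9 the order from high to low was PPL, EVPL, SPRR3, SPRR1A, SPRR1B, CALML5, TGM1 and IVL, with no overlap of libraries between neighbours. In PC9-BrM4 CALML5 moved up beside PPL, with libraries that overlapped those of PPL, and SPRR1A moved to the lowest place of the 8 tested genes. In PC9-AMG SPRR1A came next after PPL and EVPL, and the neighbours SPRR3, CALML5 and TGM1 overlapped in turn. CALML3 and SPRR2A were last and overlapped in every line.

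The summed level of the 10 genes was 184 and 178 TPM in PC9, 302 and 356 TPM in PC9-BrM4, and 182 and 177 TPM in PC9-AMG. CALML5 supplied 1.15% and 1.44% of that sum in PC9, but 40.4% and 38.6% of it in PC9-BrM4, and 1.72% and 2.14% for PC9-AMG. PPL and EVPL together supplied 90.6% and 91.4% in PC9, then 55.6% and 57.7% for PC9-BrM4, and 87.1% and 88.9% in PC9-AMG. The larger sum in PC9-BrM4 was thus mostly CALML5, with small additions from PPL in 1 library and from EVPL in both.

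The differences of the 8 tested genes went in both directions in each comparison. Between PC9-BrM4 and PC9, limma's adjusted p threshold of 0.05 was passed by 4 of the 8, with 3 higher (CALML5, IVL and EVPL) and 1 lower (SPRR1A), while SPRR1B, SPRR3, TGM1 and PPL did not pass. The background was high, since 46.6% of all tested genes passed, 23.4% as higher and 23.1% as lower. Between PC9-AMG and PC9, 4 were higher (CALML5, SPRR1A, TGM1 and EVPL) and 1 was lower (PPL), where 55.5% of all tested genes passed, 27.8% as higher and 27.7% as lower. Between PC9-AMG and PC9-BrM4, 2 were higher (SPRR1A and TGM1) and 4 lower (CALML5, IVL, SPRR3 and PPL), where 56.1% of all tested genes passed, 28.1% as higher and 28.0% as lower. As the genes were chosen with these values known, nothing is read from the counts. Without PC9 replicate 1, or without PC9-AMG replicate 2, 3 of the 8 passed between PC9-AMG and PC9, and without PC9-AMG replicate 2 the number between PC9-AMG and PC9-BrM4 was also 3. The first 2 comparisons use the same PC9 libraries.

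**Figure D2:**
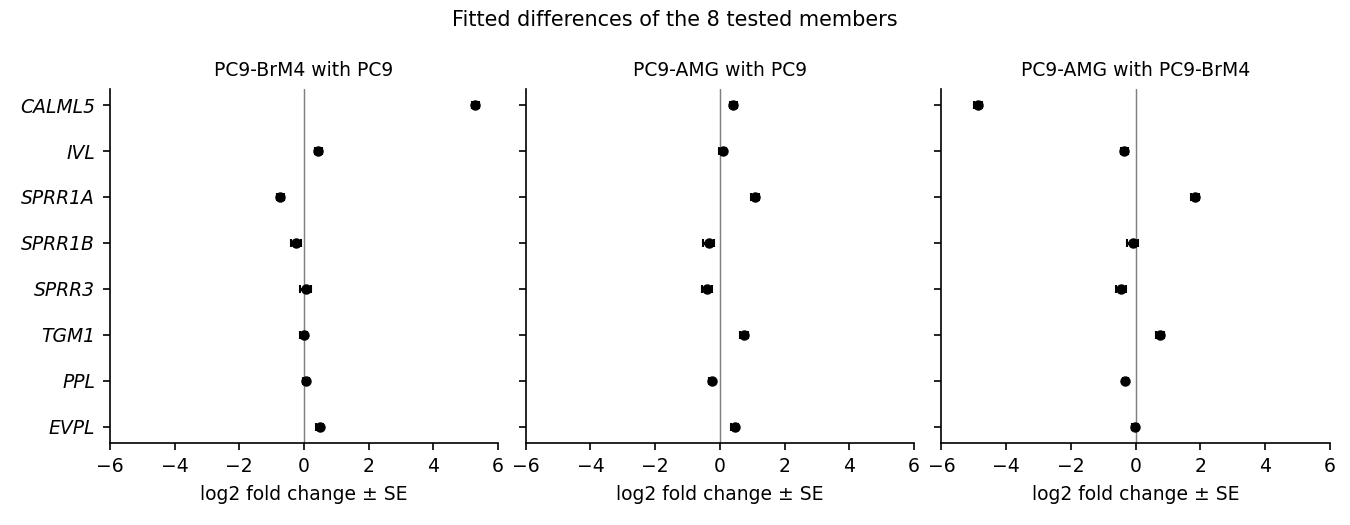
Log2 differences (horizontal axis, log2(TPM + 1) scale) of the 8 tested genes in the 3 comparisons, each panel giving the first line relative to the second. Points are estimates and bars are SE from the fit. CALML5 lies at 5.29 and -4.87 in the panels that involve PC9-BrM4 and at 0.42 in the other, while the other genes lie within 2 units of 0.

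The counts of genes whose libraries do not overlap are given beside the share over all tested genes, and nothing is read from them either. The libraries of PC9-BrM4 and PC9 did not overlap for 5 of the 8 genes, beside 75.2% of all tested genes. Those of PC9-AMG and PC9 did not overlap for 8 of 8, beside 79.8%, and those of PC9-AMG and PC9-BrM4 for 6 of 8, beside 77.5%. The median log2 difference of the 8 genes was 0.06, 0.26 and -0.21 in the 3 comparisons, beside medians within 0.01 of 0 over all tested genes.

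The genes around CALML5 did not share its difference in PC9-BrM4. Within 2 Mb on either side, 19 other genes were tested, and their log2 differences between PC9-BrM4 and PC9 ranged from -3.50 to 0.57 with a median of -0.13, beside 5.29 for CALML5. Of the 19, 6 passed limma's threshold as higher and 7 as lower. The closest tested gene on one side was NET1, which fell from 123 ± 1.07 to 94.4 ± 0.482 TPM (SD, n = 2), a log2 change of -0.38 (limma adjusted p = 0.000425). On the other side CALML3-AS1, the closest tested gene, fell from 1.04 ± 0.0143 to 0.431 ± 0.0253 TPM, a log2 change of -0.51 (limma adjusted p = 0.0088). Further out on that side ASB13 rose from 17.2 ± 0.429 to 22.8 ± 0.121 TPM, a log2 change of 0.39 (limma adjusted p = 0.00214), and IL15RA, an interleukin receptor chain, rose from 10.4 ± 0.282 to 15.9 ± 1.05 TPM, a log2 change of 0.57 (limma adjusted p = 0.000779). The lowest value of the range, -3.50, belongs to AKR1C4, which was listed at 0 in 1 of 2 PC9-BrM4 libraries and at 52.7 TPM in the other, so that its level is uncertain. In PC9-AMG, 17 of the 19 neighbours were below PC9 and 12 passed limma's threshold as lower, with a median of -0.51, while CALML5 was at 0.42. AKR1C3, an aldo-keto reductase gene within 500 kb of CALML5, stood at 2204 and 2132 TPM in PC9 and fell to 665 and 706 TPM in PC9-AMG, a log2 change of -1.66 (limma adjusted p = 2.12e-06).

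EVPL and PPL were close to the median of the genes around them in some comparisons and away from it in others. Around EVPL, 65 of 71 tested neighbours were above PC9 in PC9-AMG, with a median of 0.46, the same as the 0.46 of EVPL itself, and with the median of its neighbours subtracted EVPL stood at 0.000696. In PC9-BrM4 the neighbours of EVPL had a median of 0.05, beside 0.48 for EVPL, and between PC9-AMG and PC9-BrM4 64 of the 71 were above 0, with a median of 0.36 beside -0.02 for EVPL. Around PPL, 39 of 54 neighbours were lower in PC9-AMG than in PC9-BrM4, with a median of -0.35 beside -0.32 for PPL, and with that median subtracted PPL stood at 0.0256. Relative to PC9, 43 of the 54 were above 0 in PC9-BrM4, with a median of 0.24 beside 0.06 for PPL, and in PC9-AMG their median was -0.0024 beside -0.26 for PPL. The genes around IVL and the SPRR genes had medians between -0.04 and 0.04 in all 3 comparisons. Those around TGM1 had medians of -0.17 in PC9-BrM4 and -0.14 in PC9-AMG, and TGM1 lay above both. The part of the surrounding region in these differences was not tested.

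**Figure D3:**
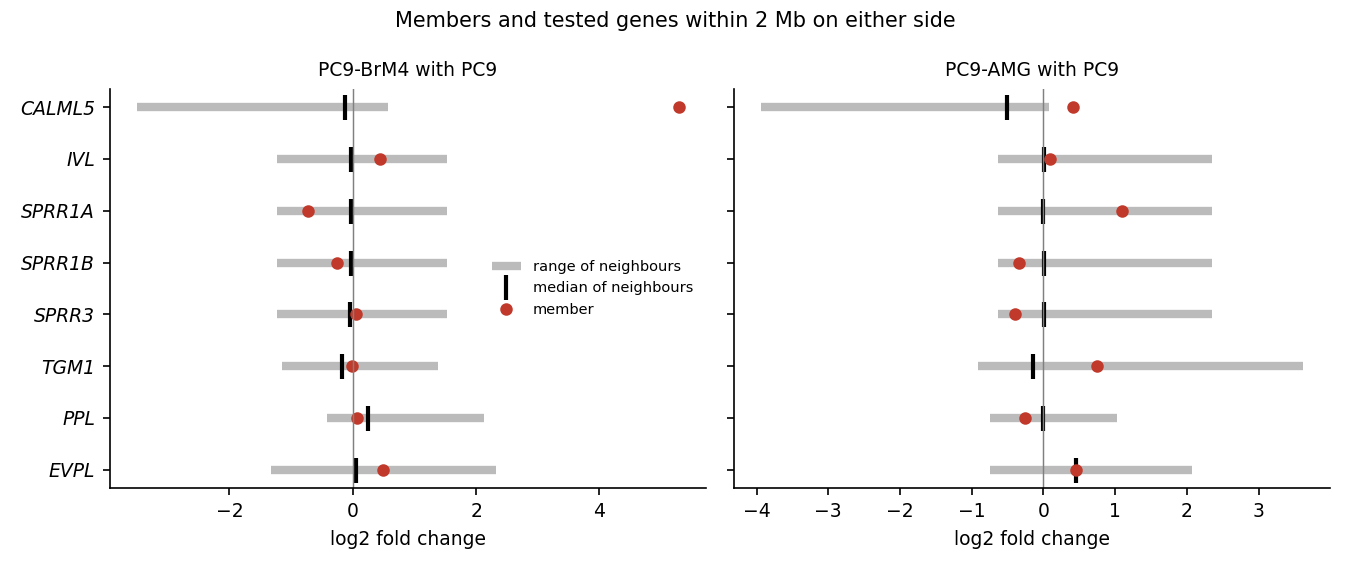
Log2 differences from PC9 (horizontal axis) of each of the 8 tested genes (red points) and of the tested genes within 2 Mb on either side (grey bars from lowest to highest, black strokes for the median), for PC9-BrM4 on the left and PC9-AMG on the right. CALML5 lies outside the range of its neighbours in both panels, at 5.29 and 0.42, and EVPL lies on the median of its neighbours in PC9-AMG, at 0.46.

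The genes whose profile over the 6 libraries was nearest to that of CALML5 were found by Euclidean distance between centred log2(TPM + 1) values. The median distance of the 14194 other tested genes was 5.90. UGT1A8 and UGT1A10, glucuronosyltransferases that share exons on chromosome 2, were nearest, at 0.778 and 0.826. UGT1A8 was listed at 0 in PC9 and PC9-AMG and at 42.5 and 54.1 TPM in PC9-BrM4, and UGT1A10 at 0 and at 53.1 and 39.5 TPM. The split between these overlapping genes is uncertain. ANKRD35, an ankyrin repeat protein, followed at 1.37, with 1.54 and 1.99 TPM in PC9, 39.3 and 42.4 TPM in PC9-BrM4, and 1.24 and 1.36 TPM in PC9-AMG. CTAG2, a cancer-testis antigen, and COL6A3, a collagen VI chain, were at 2.31 and 2.41. No other gene of the 10 was among these 5.

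For this list and those that follow, rises and falls are counts of genes past limma's threshold. Of all tested genes, 46.6% passed between PC9-BrM4 and PC9 and 55.5% between PC9-AMG and PC9. Other precursors of the envelope were measured as a list of 38 genes. Of these, 26 were at 0 in all libraries and 34 stayed below 1 TPM, which left 4 to test. Between PC9-BrM4 and PC9, 3 of the 4 rose and 1 fell. PI3, the elastase inhibitor elafin that transglutaminase links into the shell, rose from 24.6 ± 0.0823 to 68.4 ± 3.88 TPM, a log2 change of 1.44 (limma adjusted p = 6.66e-06). SCEL, which encodes the envelope-associated protein sciellin, fell from 42.2 ± 0.715 to 6.59 ± 0.0954 TPM, a log2 change of -2.51 (limma adjusted p = 4.26e-06). In PC9-AMG 1 of the 4 rose and 3 fell. CNFN, the envelope protein cornifelin, rose from 2.90 ± 0.405 to 8.98 ± 0.585 TPM, by 1.36 (limma adjusted p = 5.7e-05), PI3 fell to 14.3 ± 0.641 TPM and SCEL to 31.3 ± 4.86 TPM (limma adjusted p = 9e-05 and 0.00781). The median over the 4 was 0.35 in PC9-BrM4 and -0.37 in PC9-AMG. Without PC9 replicate 1, 1 of the 4 rose and 1 fell in PC9-BrM4.

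Among the transglutaminases other than TGM1 and the proteases and inhibitors that regulate them, 7 of 11 genes were tested. In PC9-BrM4 6 of the 7 fell and TGM2 did not pass, with a median of -0.43 beside -0.0016 over all genes, while TGM1 was at -0.01. CTSV, which encodes the protease cathepsin V, fell from 59.7 ± 0.680 to 31.1 ± 0.532 TPM, by 0.92 on the log2 scale (limma adjusted p = 1.31e-05). CST6, the cystatin that inhibits it, fell from 115 ± 10.1 to 80.7 ± 3.55 TPM, by 0.50 (limma adjusted p = 0.00154). In PC9-AMG 4 rose and 3 fell, among them TGM4, from 0.587 ± 0.0832 to 2.69 ± 0.132 TPM, and CST6, from 115 to 160.5 ± 12.9 TPM (limma adjusted p = 0.000134 and 0.0015). Leaving out PC9 replicate 1 or PC9-BrM4 replicate 1 left 4 falls in PC9-BrM4, and leaving out PC9 replicate 2 left 3 rises and 1 fall in PC9-AMG.

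The other plakins and the desmosomal plaque genes, to which PPL and EVPL connect, were all tested, 10 of 10. In PC9-BrM4 6 rose and 1 fell, with a median of 0.27. EPPK1, which encodes epiplakin, rose from 5.43 ± 0.268 to 15.2 ± 3.88 TPM, by 1.31 (limma adjusted p = 0.000424), and MACF1, a cytoskeletal linker, from 50.3 ± 1.40 to 77.8 ± 12.4 TPM, by 0.61 (limma adjusted p = 0.00305). Without PC9-BrM4 replicate 2, the library high for long plakin transcripts, 3 passed, each of them higher. Without PC9 replicate 1 4 passed and without PC9 replicate 2 3 passed, again each higher. In PC9-AMG 5 rose and 2 fell, with a median of 0.22. MACF1 rose to 123 ± 12.7 TPM, by 1.27 (limma adjusted p = 8.39e-05), and PERP, a desmosomal membrane protein, fell from 223 ± 0.659 to 121 ± 8.55 TPM, by 0.87 (limma adjusted p = 2.12e-05). Without PC9-AMG replicate 1, 3 rose and 2 fell.

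Among enzymes of the lipid envelope, 8 of 15 were tested. In PC9-BrM4 3 rose and 2 fell, with ALOXE3, an epidermal lipoxygenase, from 0.943 ± 0.107 to 1.71 ± 0.188 TPM and ABCA12, the lipid transporter of lamellar granules, from 1.38 ± 0.00185 to 0.716 ± 0.0945 TPM (limma adjusted p = 0.0226 and 0.0147). ALOXE3 no longer passed without PC9 replicate 2 (0.42) or PC9-BrM4 replicate 2 (0.41), and ABCA12 no longer passed without either PC9 library (-0.47 each) or without PC9-BrM4 replicate 1 (-0.42). Without PC9 replicate 2, 2 of the list rose and 1 fell. In PC9-AMG, where TGM1 and SPRR1A were highest, 5 of the 8 rose and the other 3 did not pass, with a median of 0.43. ALOXE3 rose to 4.68 ± 0.880 TPM, by 1.54 (limma adjusted p = 9.66e-05), and ELOVL1, a fatty acid elongase, from 234 ± 4.61 to 390.1 ± 2.73 TPM, by 0.74 (limma adjusted p = 1.15e-05).

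Of the epidermal proteases and their inhibitors, 11 of 22 were tested, and in PC9-BrM4 4 rose and 6 fell, with a median of -0.22. Among the 6 that fell, the log2 difference over all settings run was -0.76 to -0.66 for KLK10 and -0.66 to -0.55 for SERPINB5. CDSN, the corneodesmosome protein corneodesmosin, rose from 0.889 ± 0.112 to 8.82 ± 0.254 TPM, by 2.38 (limma adjusted p = 8.2e-06), and KLK7, a kallikrein that cleaves it, from 138 ± 0.201 to 234 ± 3.42 TPM, by 0.76 (limma adjusted p = 1.1e-05). In PC9-AMG 8 rose and 2 fell, with a median of 0.41. The log2 difference over all settings run was 0.80 to 1.02 for SERPINB7, which rose, and -0.57 to -0.47 for SERPINB5, which fell. CDSN, at 0.969 ± 0.165 TPM in PC9-AMG, did not pass (0.06, limma adjusted p = 0.681). Without PC9 replicate 2, 4 rose and 4 fell in PC9-BrM4.

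Of 33 regulators of epidermal differentiation, 27 were tested. In PC9-BrM4 10 rose and 6 fell, with a median of 0.11, where 46.6% of all tested genes passed. TFAP2C, an AP-2 factor, rose from 25.2 ± 1.52 to 46.7 ± 0.0772 TPM, by 0.87 (limma adjusted p = 5.78e-05), and TP63, the factor of basal keratinocytes, fell from 2.97 ± 0.0659 to 0.969 ± 0.0383 TPM, by 1.01 (limma adjusted p = 0.000266). In PC9-AMG 15 rose and 7 fell, with a median of 0.36, where 55.5% of all tested genes passed. GRHL3, a grainyhead-like factor of the barrier, rose from 0.794 ± 0.0183 to 3.64 ± 0.311 TPM, by 1.37 (limma adjusted p = 7.14e-05), and TP63 fell to 0.864 ± 0.0511 TPM, by 1.09 (limma adjusted p = 0.000139). FOSL1, an AP-1 subunit, stood at 121 ± 3.18, 158 ± 8.46 and 219 ± 4.57 TPM in PC9, PC9-BrM4 and PC9-AMG. Without PC9 replicate 2, and equally without PC9-BrM4 replicate 2, 7 regulators rose and 5 fell in PC9-BrM4.

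Markers of squamous keratinocytes were measured beside these genes, since CALML5 and the SPRR genes are known from that cell type. Of 24 markers 16 were tested and 2 (KRT1 and DSG1) were at 0 in all libraries, and their summed level lay between 2045 and 2086 TPM for PC9, 2389 and 2449 TPM for PC9-BrM4 and 2333 and 2422 TPM for PC9-AMG. In PC9-BrM4 7 rose and 7 fell, and in PC9-AMG the counts were also 7 and 7. KRT5, a basal keratin, rose from 98.2 ± 0.684 to 470.3 ± 14.1 TPM in PC9-BrM4, by 2.25 (limma adjusted p = 3.24e-07), and stood at 99.2 ± 4.08 TPM in PC9-AMG (0.01, limma adjusted p = 0.816). KRT14, its partner, rose from 1.57 ± 0.504 to 6.73 ± 0.295 TPM in PC9-BrM4 and to 5.36 ± 0.327 TPM in PC9-AMG, by 1.60 and 1.32 (limma adjusted p = 0.000124 and 0.00021). KRT17, a keratin of stressed and squamous epithelium, rose from 20.5 ± 0.380 to 75.8 ± 1.00 TPM in PC9-AMG, by 1.84 (limma adjusted p = 2.22e-06). KRT17 also rose in PC9-BrM4, by 0.59 to 0.87 on the log2 scale over all settings run. Among the 7 markers that fell in PC9-BrM4, the log2 difference over all settings run was -0.79 to -0.64 for DMKN and -0.77 to -0.56 for TRIM29. Among the 7 that fell in PC9-AMG, it was -1.09 to -0.95 for KRT6A and -0.88 to -0.65 for KRT15. The part of these marker differences in the levels of CALML5 and SPRR1A was not tested.

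**Figure D4:**
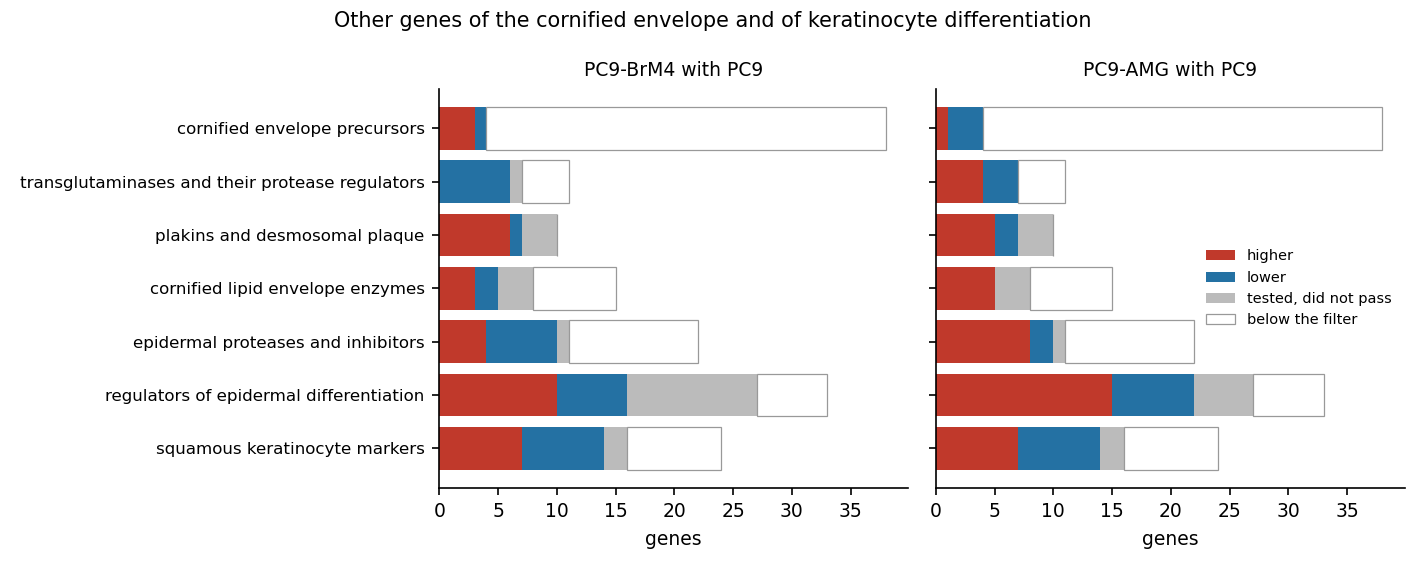
Number of genes (horizontal axis) in each of 7 lists that were higher (red), lower (blue) or tested without passing (grey) at a limma adjusted p of 0.05, with genes below the filter in white, for PC9-BrM4 (left) and PC9-AMG (right) relative to PC9. Of the 38 precursors 34 are below the filter, and the transglutaminase list has 6 lower genes in PC9-BrM4 and 4 higher and 3 lower in PC9-AMG.

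Of 18 lung and simple-epithelial markers 8 were tested, and in PC9-BrM4 1 rose and 6 fell. With the median of the neighbouring genes subtracted, 2 rose and 3 fell. FOXA1, a pioneer factor of endodermal epithelia, fell from 20.3 ± 0.0130 to 2.79 ± 0.403 TPM in PC9-BrM4, by 2.49 on the log2 scale. KRT7, a simple-epithelial keratin, had levels of 2781 and 2842 TPM in PC9, 1863 and 1830 TPM in PC9-BrM4 and 3018 and 3263 TPM in PC9-AMG. In PC9-AMG 4 of the 8 rose and 3 fell, or 5 and 1 with that median subtracted. The summed level of these markers was lowest in PC9-BrM4, at 9433 to 9564 TPM. It was 12213 to 12295 TPM in PC9 and 13997 to 14489 TPM in PC9-AMG. Abundant keratins such as KRT7, KRT8 and KRT18 weigh most in this sum, which therefore does not describe the markers as a group. With the median of the neighbouring genes subtracted, KRT8 and KRT18 stood at 0.25 and 0.18 in PC9-BrM4 relative to PC9.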

How the data were processed

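RNA of 3 lines, 2 libraries each, was extracted with TRIzol and prepared with a TruSeq Stranded mRNA kit, per the labels. Tools listed in the submitters' processing notes, with no role or order, are StringTie 1.3.4d, HISAT2 2.1.0 and bcl2fastq, and the build listed is hg38. No source used here gives the annotation, the options or the read length. The authors deposited per-library gene tables that hold TPM, FPKM and mean per-base coverage, a signal not scaled to library size. TPM summed to 1000000 in each library, and lines of one symbol were summed here. The deposited tables hold no counts, so no count model or counting interval was used. The 6 columns of a further series table were not used, because their names do not match the labels. The names of the per-library tables differ in the same way, with BrM and EMG where the labels say BrM4 and AMG. Those tables were assigned by the sample they belong to, and the line names here follow the labels.

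Genes with at least 1 TPM in at least 2 of 6 libraries (14195 of 26485) were fitted with limma 3.58.1 in R 4.3.3 on log2(TPM + 1) with a mean-variance trend, with 1 mean per line and 3 residual degrees of freedom, and p-values were Benjamini-Hochberg adjusted over all of them at a threshold of 0.05. The procedure was tested on simulated data. The 10 genes and all lists were chosen with earlier results of these data known. Named list genes were those with the largest called rise or fall, up to 2 each per list and comparison, whose higher line averaged 1 TPM or more, list genes of 50 TPM or more for their level, tested neighbours of CALML5 within 500 kb and the 5 nearest profiles. NKX2-1, SFTPA1, SFTPC, LOR, KRT1 and DSG1 were named after their values were seen. The comparison of plakin replicates by transcript length, the ratios and the shared 50-base windows were added after the values were seen. Promoters are from RefSeq (GRCh38.p14) and transcripts from GENCODE v29. Pseudocount, filter, unit, scaling, trend, samples fitted, replicate block, handling of repeated symbols, left-out libraries and the regional median were varied. Results of one further list are not reported here.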

Additional observations from a re-analysis of the deposited data

Results flagged for a closer look

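Genes of the measured lists were singled out when they rose in PC9-BrM4 or PC9-AMG and fell in the other line, relative to PC9. Each change had to reach 0.5 on the log2 scale and pass limma's threshold. The direct difference between PC9-AMG and PC9-BrM4 also had to pass it. Because the genes were picked by these differences, the sizes and p-values below describe the picked genes and are no further support. PI3, the elafin gene, had a log2 difference of -2.18 between PC9-AMG and PC9-BrM4, with 14.3 ± 0.641 TPM against 68.4 ± 3.88 TPM (SD, n = 2; limma adjusted p = 6.98e-07). The desmosomal plaque gene PKP3 differed by -1.09, with 54.8 ± 0.385 TPM against 118 ± 10.2 TPM (limma adjusted p = 1.06e-05). SERPINB7, a protease inhibitor of the epidermis, went the other way, by 1.43, with 16.8 ± 0.927 TPM against 5.63 ± 0.615 TPM (limma adjusted p = 1.67e-05). The keratin genes KRT6A, KRT6B and KRT6C differed by -1.74, -1.73 and -1.57. These 3 are near-identical copies, so the split of reads between them is uncertain and they should be counted as one signal. SPRR1A, whose difference is a description because it was chosen by name, lay below PC9 in both PC9-BrM4 libraries and above it in both PC9-AMG libraries.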

How the results depend on the processing

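Among the 8 tested genes of the set, 325 alternative values stayed within 1 SE of the fitted value, 46 moved further, and 1 that had passed limma's threshold changed sign. Many of the 325 could not move. The filter, the trend, the replicate block and leaving out a library of a line not compared change the SE but not the estimate. The 325 are therefore no measure of how stable the estimates were. Values near 0 that had not passed also turned when single libraries were left out, such as SPRR3 in PC9-BrM4 (-0.16 without PC9 replicate 2), PPL in PC9-BrM4 (-0.07 without PC9-BrM4 replicate 2), and SPRR1B and EVPL between PC9-AMG and PC9-BrM4 (0.12 without PC9-AMG replicate 2 and 0.14 without PC9-BrM4 replicate 2). Over the other genes 4515 values stayed on their side of the threshold, 194 lost it, 39 passed newly and 13 that had passed changed sign. The sign changes of values that had passed came from subtracting the median of neighbouring genes. In PC9-BrM4 relative to PC9 it gave KRT13 0.00803, KRT18 0.18 and KRT8 0.25. In PC9-AMG relative to PC9 it gave CALM3 -0.17, KLK10 -0.12, KLK6 -0.00827, KRT19 0.016 and LYPD3 -0.0452. Between PC9-AMG and PC9-BrM4 it gave PPL 0.0256, CALM3 -0.00509, GATA3 0.18, KLK5 -0.15, LYPD3 -0.31 and SLC27A4 -0.14. CALML5 stayed between 4.79 and 5.73 in PC9-BrM4 under every alternative run, and a pseudocount of 0.1 TPM widened SPRR1A to -1.03 in PC9-BrM4 and 1.305 in PC9-AMG. Leaving out single libraries, 3 to 5 of the 8 tested genes passed between PC9-BrM4 and PC9, 3 to 5 between PC9-AMG and PC9 (3 without PC9 replicate 1 and 3 without PC9-AMG replicate 2, beside 5), and 3 to 6 between PC9-AMG and PC9-BrM4 (3 without PC9-AMG replicate 2, beside 6). The lone library left in a line was assumed to vary like the others. The same-numbered libraries did not deviate together (r = -0.0691, -0.0277 and -0.0627 over 14195 genes), and with the replicate number as a block 4, 6 and 6 of the genes passed, beside 4, 5 and 6 without it, and 66, 76 and 71 list genes, beside 69, 78 and 71. The absence of counts leaves the counting error of genes near 1 TPM unknown.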
